A study of Mus musculus with 16 samples.

Results

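Skeletal muscle loses protein in cancer cachexia partly through ubiquitin ligases, and 10 genes that encode muscle ubiquitin ligases were followed here through the gastrocnemius of 16 mice. The genes are taken as a list of symbols, and no measured value enters the rule, although the list was drawn up with earlier results of these data known. They are the F-box genes Fbxo32 (atrogin-1, also called MAFbx), Fbxo31, Fbxo30, Fbxo21 and Fbxo40, the RING-type genes Trim63 (MuRF1), Traf6 and Cblb, the N-end rule gene Ubr2 and the HECT-type gene Nedd4l. Each of the 10 had 1 line among the 21923 genes of the expression table, and each passed the filter on low counts in every comparison. The 4 groups were the gastrocnemius of tumor-free mice (NOR), of tumor-bearing mice given PBS (CAC), of tumor-bearing mice given amiloride at 2 mg/kg (AM), and of mice carrying tumor cells in which Rab27 was knocked down (KD). There were 4 mice per group, adults of 6 to 8 weeks by the study's methods. In each group, replicates 1 and 2 are labelled C57BL/6 and replicates 3 and 4 BABL/c (so spelled in the sample labels). The tumors were subcutaneous LLC lung carcinoma in the C57BL/6-labelled mice and CT26 colon carcinoma in the others, and from day 9 after inoculation AM mice received amiloride, and by the study's methods NOR, CAC and KD mice PBS, as a daily intraperitoneal injection. Tissue was taken on day 30. Rab27a and Rab27b were targeted by lentiviral short hairpin RNAs in the tumor cells, so Rab27 levels in the muscle are no check of the KD label. Strain and tumor line change together, so their parts cannot be told apart.

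A ubiquitin ligase picks the protein that is to be tagged with ubiquitin. F-box proteins do so as the exchangeable subunit of a complex built on the scaffold Cul1 and the adaptor Skp1, whereas RING proteins such as MuRF1 bring the substrate and the ubiquitin-carrying enzyme together directly, and HECT proteins carry the ubiquitin themselves before passing it on. Fbxo32 and Trim63 are the classical atrophy genes: their transcripts are known to rise in many forms of muscle wasting, MuRF1 acts on thick-filament proteins, and atrogin-1 acts on regulators such as MyoD and eIF3f. FoxO transcription factors and the glucocorticoid receptor are known activators of Trim63.

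Trim63 and Fbxo31, described below as called genes, differ in the motifs around their transcription start, so this stretch is shown for both, from 250 bases before to 50 bases after the start, as given by RefSeq on GRCm38.p6. Capitals mark matches to the FoxO motif GTAAACA and to AGAACA, one arm of the paired element that the glucocorticoid receptor binds (called the glucocorticoid receptor motif here), searched on both strands, here read on the opposite strand. Both windows are written 5′ to 3′ along the gene's own strand. The Trim63 window is chr4:134314870-134315169 on the plus strand and the Fbxo31 window is chr8:121578757-121579056 on the minus strand.
Trim63: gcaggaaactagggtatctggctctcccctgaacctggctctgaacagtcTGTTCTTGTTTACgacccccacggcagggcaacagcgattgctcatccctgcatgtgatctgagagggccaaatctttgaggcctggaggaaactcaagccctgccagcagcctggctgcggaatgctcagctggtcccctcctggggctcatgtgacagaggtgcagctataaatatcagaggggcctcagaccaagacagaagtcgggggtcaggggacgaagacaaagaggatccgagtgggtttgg
Fbxo31: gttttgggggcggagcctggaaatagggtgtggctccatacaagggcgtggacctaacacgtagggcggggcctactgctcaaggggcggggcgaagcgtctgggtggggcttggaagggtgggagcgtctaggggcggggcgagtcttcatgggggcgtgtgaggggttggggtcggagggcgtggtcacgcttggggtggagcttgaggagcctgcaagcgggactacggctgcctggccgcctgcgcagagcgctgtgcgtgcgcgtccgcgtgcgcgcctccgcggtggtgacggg
In the Trim63 window the glucocorticoid receptor match TGTTCT began 200 bases before the start (chr4:134314920-134314925) and the FoxO match TGTTTAC followed it directly, 194 bases before the start (chr4:134314926-134314932). The same window held 3 matches to the E-box CANNTG and none to the C/EBP motif TTGCNNAA or the STAT motif TTCNNNGAA. The Fbxo31 window, with a GC content of 69.7%, held none of these 5 motifs. Of 32817 such windows, 3.65% held the FoxO motif, 19.0% the glucocorticoid receptor motif, 10.8% the C/EBP motif, 8.29% the STAT motif and 72.3% an E-box. A match is only a description of these letters. Windows were found for 8 of the 10 genes (Fbxo40 has 2), not for Fbxo32 and Nedd4l, and the FoxO motif was found in no other gene's window. A glucocorticoid receptor match also stood in one of the Fbxo40 windows, and a C/EBP match in the other.

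Library totals ran from 35913190 to 61032708 counts. Muscle fibre genes were high in all 16 libraries (summed CPM of 10 markers from 62030 in CAC replicate 3 to 193200 in NOR replicate 1), and none of the 10 was at 0. Some libraries stood apart. The summed CPM of 11 lymphocyte markers (the 12 in the expression table without Cd74) was 2.10 to 8.89 in 5 libraries (NOR replicate 1, CAC replicates 1 and 4, KD replicates 2 and 3) and 48.8 to 539 in the other 11. With Cd74 included, the lowest library summed to 127 CPM in NOR, 80.2 CPM in CAC, 243 CPM in AM and 65.6 CPM in KD. KD replicate 3 had no count on 4 Y-linked genes, which held 4558 to 8438 counts in each of the others (the sample protocol and the study's supplement name both sexes for the CT26-bearing strain, its main methods only males). AM replicate 1 carried liver transcripts (summed CPM 1977 over 8 genes, 51.6 to 381 elsewhere). All 5 erythroid markers and 3 of 6 neutrophil markers rose in CAC vs. NOR, as did 1 of 7 macrophage markers (Itgam) and 1 of 10 muscle fibre markers (Des), while 0 of 12 lymphocyte, 0 of 6 adipocyte and 0 of 2 tested liver markers were called. Des was the only muscle fibre marker with a positive log2 fold change there, and the median of that list was -0.44. Of the 7 macrophage markers, 5 were positive (median 0.67). In AM vs. CAC only Itgam and Des were called among these lists, both lower, although 8 of 10 muscle fibre markers had positive values. None of these markers was called in KD vs. CAC. In bulk tissue, fewer cells of a type and less RNA per cell cannot be told apart.

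Per transcript length, Trim63 was the most abundant of the 10 in normal muscle. In NOR gastrocnemius it reached 186 ± 39.7 FPKM (fragments per transcript length and library size, SD, n = 4), with a range of 143 to 239 that met that of Fbxo40, a muscle-restricted F-box gene (138 ± 14.6 FPKM, 122 to 156). Fbxo31 lay clearly below them at 64.4 to 70.2 FPKM. Fbxo32 (13.2 to 26.8 FPKM) and Ubr2 (18.9 to 20.97 FPKM) overlapped, and the next pair, Fbxo21 (5.85 to 16.1 FPKM) and Nedd4l (7.29 to 9.90 FPKM), overlapped as well. The highest Fbxo21 value also exceeded the lowest of Fbxo32. Cblb (3.52 to 6.82 FPKM), Traf6 (3.63 to 4.39 FPKM) and Fbxo30 (2.47 to 4.44 FPKM) had the lowest means and overlapped one another, and the highest Cblb value exceeded the lowest of Fbxo21. The order was different in CAC gastrocnemius. Trim63 alone stood at 914 to 1418 FPKM, Fbxo31 at 120 to 215 FPKM and Fbxo32 at 110 to 159 FPKM, and these last overlapped with each other and with Fbxo40 at 93.2 to 136 FPKM.

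**Figure D1:**
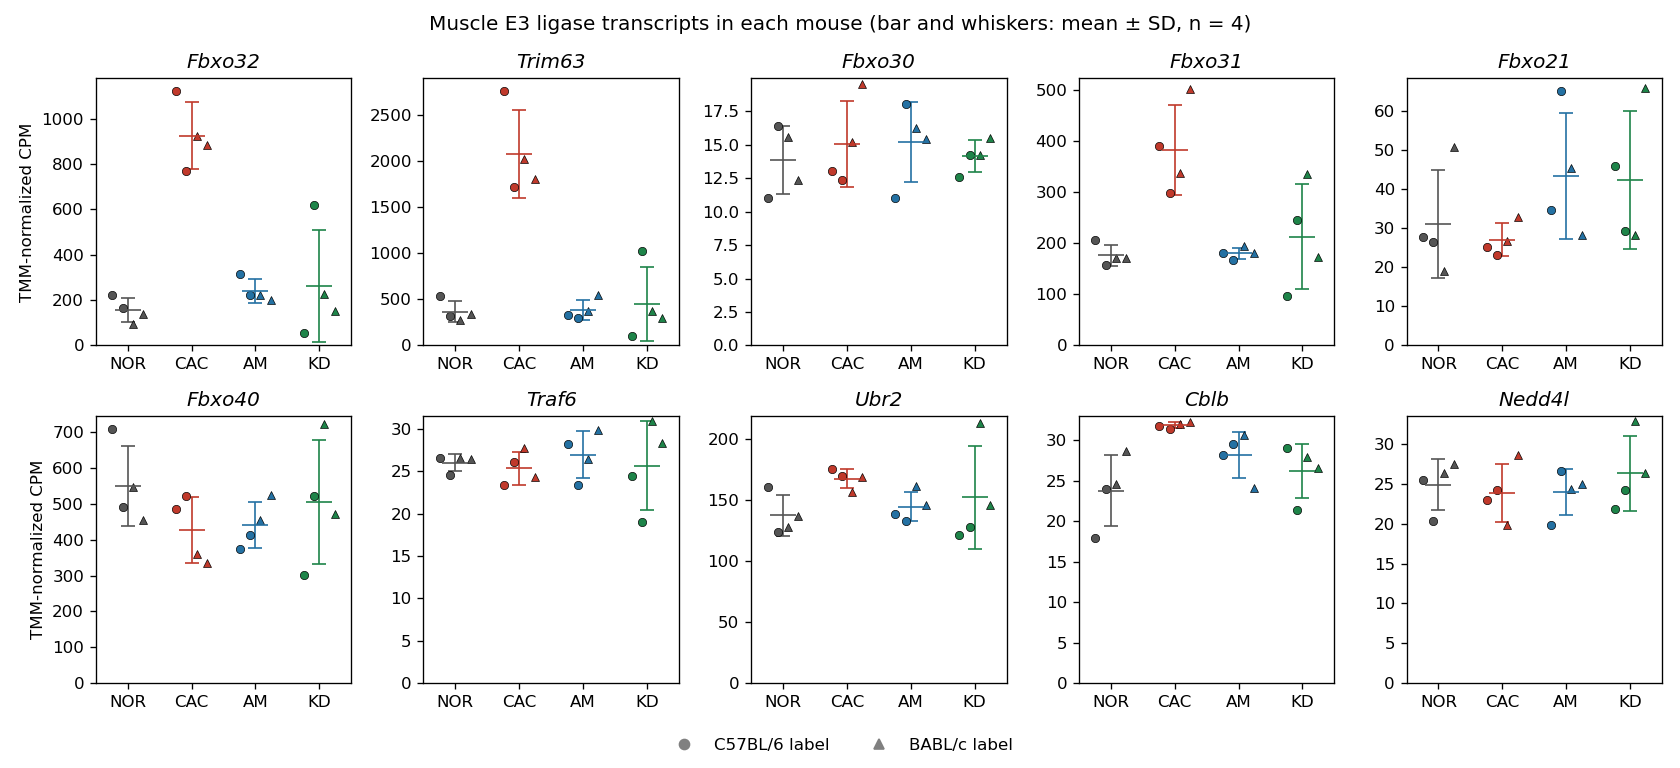
Each panel plots one gene's TMM-normalized CPM (linear axis from 0) in the 16 mice by group, with circles for the C57BL/6 label, triangles for the BABL/c label, and the mean ± SD of 4 mice. The 4 CAC mice sit above all NOR and AM mice for Fbxo32, Trim63 and Fbxo31, and KD mice spread widely for these genes.

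To see which of the ligase genes differ in cachectic muscle, CAC was compared with NOR. Fbxo32, Trim63 and Fbxo31 rose, and none of the 10 was called lower. The atrogin-1 gene Fbxo32 measured 222, 165, 93.1 and 140 CPM (counts scaled to library size after TMM normalization, CPM) in NOR replicates 1 to 4 and 1123, 770.5, 924.5 and 885 CPM in the CAC mice. Every CAC mouse lay far above every NOR mouse. The means were 926 ± 147 and 155 ± 53.5 CPM, a log2 fold change of 2.58 with a standard error (SE) of 0.266 and a 95% interval of 1.97 to 3.19 (adjusted p = 0.00214 by edgeR's quasi-likelihood test with Benjamini-Hochberg adjustment over all 14666 genes tested).

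Trim63, which encodes the sarcomere-associated ligase MuRF1, measured 530, 322, 269.5 and 342 CPM in the NOR mice and 2758, 1718, 2016 and 1800 CPM in the CAC mice. Again the groups were far apart, with CAC replicate 1 the highest for both genes. The log2 fold change was 2.50 (SE 0.259, 95% interval 1.91 to 3.09, adjusted p = 0.00214). Fbxo31, whose product is known for directing cyclin D1 to degradation, measured 205, 156, 171 and 170 CPM in the NOR mice and 390, 298, 337 and 502 CPM in the CAC mice. Its log2 fold change was smaller, 1.12 (SE 0.175, 95% interval 0.72 to 1.52, adjusted p = 0.00718), but the groups did not overlap.

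These 3 of 10 genes called higher stand beside 4.32% of all tested genes called higher (633 of 14666) and 9.45% called in either direction, where a call means an adjusted p of at most 0.05 and a change of at least 1.5-fold. The median log2 fold change of the 10 genes was 0.20, beside 0.01 over all tested genes. NOR replicate 1 and CAC replicates 1 and 4 were the libraries low in lymphocyte reads in this comparison. Without them (an alternative added after the data were seen that leaves 3 NOR and 2 CAC mice), the log2 fold changes were 2.67 for Fbxo32, 2.59 for Trim63 and 0.94 for Fbxo31, and all 3 calls remained. Within a single strain label, with 2 mice per group, the adjusted p of the 3 genes ran from 0.043 to 0.144 and only the call of Fbxo32 in C57BL/6-labelled mice remained. Summed erythroid markers (1049 to 1359 CPM in NOR, 3628 to 8615 CPM in CAC) and neutrophil markers (3.70 to 31.5 and 95.2 to 223 CPM) were higher in every CAC mouse too, and their part in these results was not tested.

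The other 7 genes were not called. Cblb, a ligase known to act on insulin receptor substrate 1 in unloaded muscle, measured 18.0 to 28.6 CPM in NOR and 31.5 to 32.3 CPM in CAC mice. The groups did not overlap, as in 12.3% of all tested genes in this direction, and the spread in CAC was narrow (31.9 ± 0.351 CPM, SD, n = 4). The log2 fold change was 0.42 (95% interval 0.11 to 0.73, adjusted p = 0.0745). Ubr2, an N-end rule ligase that recognizes destabilizing amino-terminal residues, measured 123 to 161 CPM in NOR and 156 to 175 CPM in CAC mice, a log2 fold change of 0.29 (95% interval 0.05 to 0.52, adjusted p = 0.104). These values for Ubr2 depended on scaling: with total counts instead of TMM its adjusted p was 0.0131 at a log2 fold change of 0.42, and the deposited FPKM values did not overlap (18.9 to 20.97 in NOR, 25.3 to 28.2 in CAC). Total-count scaling moved the median of all genes to 0.14 from 0.01. DESeq2 gave an adjusted p of 0.04 for Ubr2 and 0.0459 for Cblb. The fitted change of both genes stayed under 1.5-fold with these settings.

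Among the remaining F-box genes, Fbxo40, which targets insulin receptor substrate 1, had a log2 fold change of -0.37 (95% interval -0.82 to 0.08), with 457 to 709 CPM in NOR and 336 to 522 CPM in CAC mice. For Fbxo21, which was reported to take part in denervation atrophy, the value was -0.20 (-0.84 to 0.44), and NOR replicate 4 at 50.8 CPM lay well above the other 3 NOR mice at 19.1 to 27.8 CPM. Without that mouse the value turned to 0.14. Fbxo30, known as MUSA1 and associated with BMP signaling in denervated muscle, stood at 0.12 (-0.31 to 0.55). Traf6, a RING ligase that builds lysine-63 chains in inflammatory signaling, stood at -0.04 (-0.24 to 0.16), and Nedd4l, best known for ion channel turnover, at -0.06 (-0.38 to 0.26). The intervals of Fbxo30, Traf6, Nedd4l and Ubr2 leave out a 1.5-fold change in either direction. Fbxo30 was also the member with the fewest reads (408 to 1243 counts per library).

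**Figure D2:**
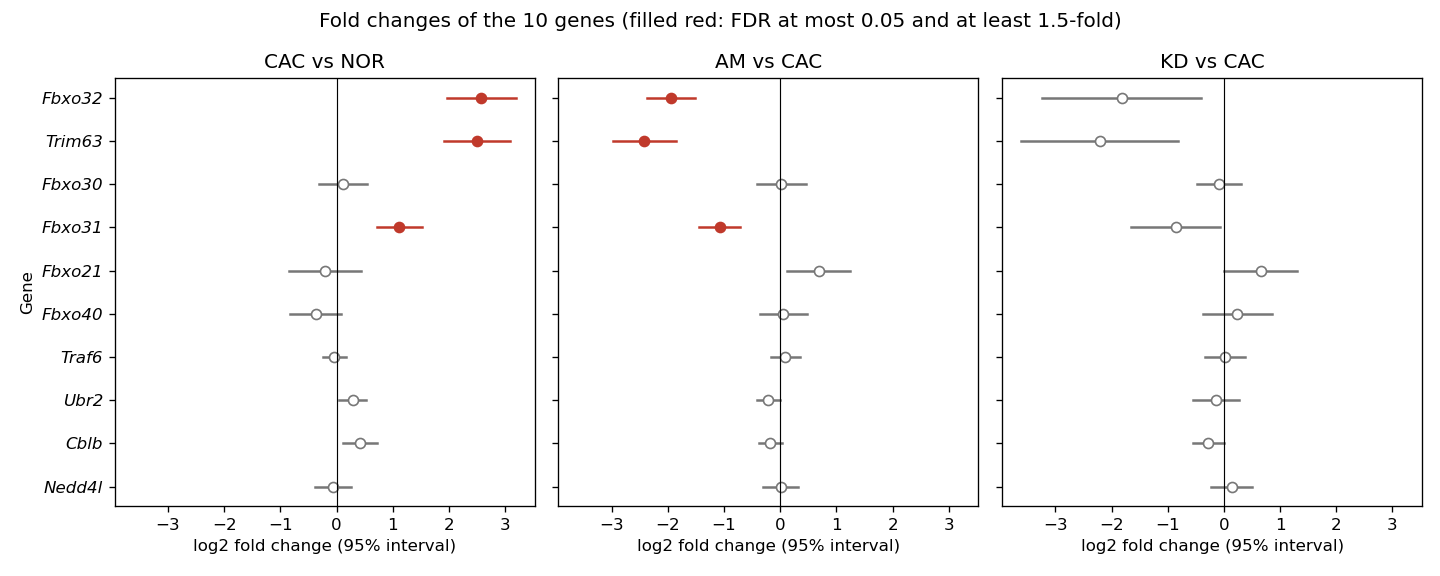
Points show how far each gene differed on the log2 scale and lines the 95% interval, in one panel each for cachexia against normal muscle and for either intervention against cachexia, with filled red points for calls. Fbxo32, Trim63 and Fbxo31 are called in CAC vs. NOR (2.58, 2.50 and 1.12) and in AM vs. CAC (-1.94, -2.42 and -1.08), and the KD intervals of Fbxo32 and Trim63 are the widest.

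Amiloride-treated tumor mice were compared with untreated tumor mice to ask what the drug does to cachectic muscle. This comparison uses the same CAC mice as the one above, so the 2 sets of values are not independent. Fbxo32, Trim63 and Fbxo31 were lower in AM muscle and the remaining 7 genes were not called. Fbxo32 measured 316, 224, 220 and 200.5 CPM in AM replicates 1 to 4, all below the lowest CAC mouse at 770.5 CPM. The log2 fold change was -1.94 (SE 0.186, 95% interval -2.37 to -1.51, adjusted p = 0.0032). Trim63 measured 332, 295, 375 and 540 CPM, against 1718 CPM in the lowest CAC mouse. Its log2 fold change was -2.42 (SE 0.245, 95% interval -2.98 to -1.86, adjusted p = 0.00385). Fbxo31 measured 180, 167, 193.5 and 180 CPM in AM muscle, a tight group below all CAC mice, with a log2 fold change of -1.08 (SE 0.158, 95% interval -1.44 to -0.72, adjusted p = 0.0112).

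Of all 14674 genes tested in AM vs. CAC, 2.03% were called lower and 3.66% in either direction. Without AM replicate 1, the library with liver transcripts, the log2 fold changes of Fbxo32, Trim63 and Fbxo31 were -2.10, -2.36 and -1.08, and all 3 calls remained. Without the CAC libraries low in lymphocyte reads they were -1.82, -2.27 and -0.82. With 2 CAC mice left, the adjusted p-values were 0.0511, 0.0511 and 0.0622, so the 3 calls were lost. Des (3334 ± 232 CPM in AM, 6337 ± 1078 CPM in CAC) and Itgam (10.7 ± 2.19 and 23.6 ± 6.51 CPM) were lower in AM muscle too, and their part was not tested. Des went against most of its list: 8 of 10 muscle fibre markers had a positive log2 fold change (median 0.34). Among the 7 macrophage markers, 2 were positive (median -0.21). The calls were also lost within each strain label alone, with 2 mice per group (adjusted p 0.146 to 0.233). With all 16 libraries in one fit, Trim63 was still called, and the adjusted p was 0.0617 for Fbxo32 and 0.0586 for Fbxo31.

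Among the uncalled genes, Fbxo21 had the largest difference in AM vs. CAC. It measured 28.3 to 65.0 CPM in AM and 23.2 to 32.9 CPM in CAC mice, a log2 fold change of 0.68 (95% interval 0.13 to 1.24, adjusted p = 0.148), and the groups overlapped. Without AM replicate 2 the value was 0.42. Ubr2 was 132.8 to 161 CPM in AM mice, a log2 fold change of -0.21 (-0.41 to -0.01, adjusted p = 0.21). Cblb lay at 24.1 to 30.7 CPM in AM mice, below every CAC mouse, as did 9.61% of all tested genes, with a log2 fold change of -0.18 (-0.38 to 0.03). The log2 fold changes of Fbxo30, Fbxo40, Traf6 and Nedd4l were 0.02, 0.06, 0.09 and 0.01.

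Mice with Rab27 knock-down tumors were compared with mice carrying unmodified tumors. The study's methods name no control vector for the unmodified cells, so lentiviral transduction and knock-down cannot be told apart. None of the 10 genes was called by edgeR, and only 1 of 14593 genes was called at all (0.00685%), although 11.1% had an unadjusted p under 0.05. Fbxo32 measured 55.0, 619, 225 and 154 CPM in KD replicates 1 to 4. KD replicate 2 was thus close to the lowest CAC mouse (770.5 CPM), whereas KD replicate 1 was below every NOR mouse. Trim63 showed the same order, with 99.1, 1024, 377.5 and 300.5 CPM. All KD mice lay below all CAC mice for both genes, as for 3.37% of all tested genes, but the coefficient of variation within KD was 94.0% for Fbxo32 and 88.8% for Trim63, beside 15.9% to 34.5% for Fbxo32 and 22.9% to 31.0% for Trim63 in the other groups. The log2 fold changes were -1.82 for Fbxo32 (SE 0.621, 95% interval -3.24 to -0.40, adjusted p = 0.351) and -2.21 for Trim63 (SE 0.613, 95% interval -3.61 to -0.81, adjusted p = 0.277).

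Fbxo31 measured 96.3, 245, 335.5 and 173 CPM in KD mice, with replicate 3 instead of replicate 2 the highest, and overlapped with CAC. Its log2 fold change was -0.86 (95% interval -1.66 to -0.06, adjusted p = 0.416). At an unadjusted p under 0.05, 5.09% of all tested genes were lower in KD, with Fbxo32, Trim63, Fbxo31 and Cblb among them. DESeq2 called Fbxo32 (adjusted p = 0.046) and Trim63 (adjusted p = 0.00557), with 340 genes called in all. With all 16 libraries in one edgeR fit, Trim63 stood at -2.20 with an adjusted p that rounds to 0.05 and lies just above the limit, Fbxo32 had an adjusted p of 0.0914, and 145 of 15220 genes were called. Without KD replicate 2, edgeR gave -2.70 for Fbxo32 (adjusted p = 0.0669) and -3.02 for Trim63 (adjusted p = 0.0651). Without KD replicate 3 the values were -1.74, -2.12 and -1.14 for Fbxo32, Trim63 and Fbxo31. Without the 4 CAC and KD libraries low in lymphocyte reads they were -3.02, -3.22 and -1.23 (adjusted p 0.175, 0.177 and 0.235). KD replicate 2 also had the highest summed erythroid markers of all libraries (21330 CPM, against 2178 to 3919 CPM in the other KD mice) and few lymphocyte reads, and the part of these in its values was not tested. Fbxo21 was 28.2 to 65.8 CPM in KD mice (log2 fold change 0.65, 95% interval 0.00 to 1.31, adjusted p = 0.447, and 0.35 without replicate 4), Cblb 21.4 to 29.0 CPM (-0.28, -0.55 to -0.01), and the other 5 genes had values between -0.15 and 0.24.

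**Figure D3:**
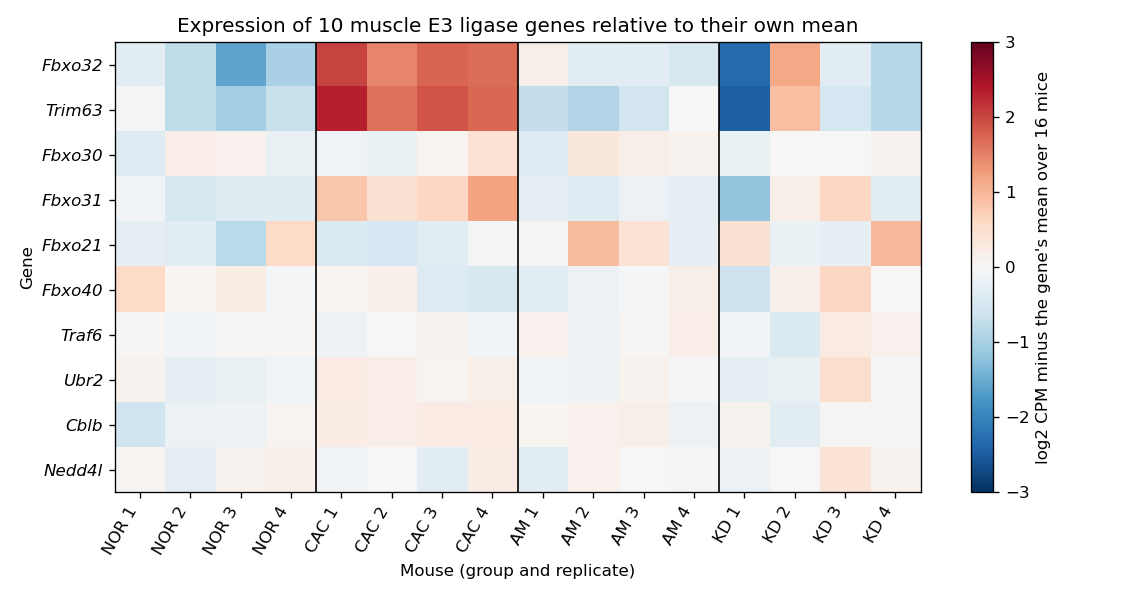
Rows are the 10 genes and columns the 16 mice, and color gives log2 CPM minus the gene's own mean over the mice. Fbxo32 and Trim63 are high in all 4 CAC mice and in KD 2 and lowest in KD 1, while Traf6 and Nedd4l stay pale throughout.

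The treated groups were also set against tumor-free mice. None of the 10 genes, and no gene at all, was called by edgeR in AM vs. NOR, KD vs. NOR or AM vs. KD (9.19%, 3.54% and 1.11% of tested genes had an unadjusted p under 0.05, and DESeq2 called 70, 31 and 1 genes). Fbxo32 was 240 ± 51.5 CPM in AM and 155 ± 53.5 CPM in NOR muscle (log2 fold change 0.65, 95% interval 0.07 to 1.23, adjusted p = 0.531), and the groups overlapped. For Trim63 and Fbxo31 in AM vs. NOR the log2 fold changes were 0.09 (-0.46 to 0.64) and 0.05 (-0.17 to 0.27). For Fbxo31 this interval leaves out a 1.5-fold change. In KD vs. NOR the intervals were wide, from -0.66 to 2.20 for Fbxo32, from -1.03 to 1.65 for Trim63 and from -0.45 to 1.00 for Fbxo31.

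The 2 strain labels, which stand for strain and tumor line together, gave similar directions for the genes called. In CAC vs. NOR the log2 fold change of Fbxo32 was 2.34 in the C57BL/6-labelled mice with LLC tumors and 2.95 in the BABL/c-labelled mice with CT26 tumors, and that of Trim63 was 2.44 and 2.64. In AM vs. CAC Fbxo32 changed by -1.81 and -2.12 and Trim63 by -2.83 and -2.07. A test of the difference between the labels found no gene past an adjusted p of 0.05 for CAC against NOR, AM against CAC or KD against CAC (4.89%, 12.4% and 5.65% of tested genes had an unadjusted p under 0.05). The difference with the smallest p among the 10 genes was that of Fbxo40. Its log2 fold change in AM vs. CAC was -0.35 in C57BL/6-labelled and 0.48 in BABL/c-labelled mice, a difference of 0.84 (SE 0.209, adjusted p = 0.312 by edgeR). DESeq2 called this difference (adjusted p = 0.00359), as it did for 443 of 14674 genes.

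Fbxo32 and Trim63 were compared within each mouse by the ratio of their counts. Trim63 had 2.39, 1.96, 2.90 and 2.43 times the counts of Fbxo32 in NOR replicates 1 to 4 and 2.46, 2.23, 2.18 and 2.03 times in the CAC mice. The log2 ratio was 1.26 ± 0.232 in NOR and 1.15 ± 0.113 in CAC (SD, n = 4; difference -0.11, exact two-sided permutation p = 0.457). In AM mice the ratio was 1.05, 1.32, 1.70 and 2.70. Replicates 1 and 2, labelled C57BL/6, and replicate 3 lay below every CAC mouse, replicate 4 above every one, and replicate 1 is the library with liver transcripts. The log2 mean in AM was 0.67 ± 0.583 (difference from CAC -0.48, exact permutation p = 0.2, adjusted 0.3 over 3 comparisons). Leaving out 1 library moved this difference to between -0.738 without AM replicate 4 (exact permutation p = 0.0286) and -0.286 without AM replicate 1 (exact permutation p = 0.4). In KD mice it was 1.80, 1.66, 1.68 and 1.96, below every CAC mouse, and these values were close together although the levels of the genes were not. The log2 ratio in KD was 0.82 ± 0.11, -0.33 from CAC (exact permutation p = 0.0286, the smallest that 4 against 4 mice allow, adjusted p = 0.0858).

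**Figure D4:**
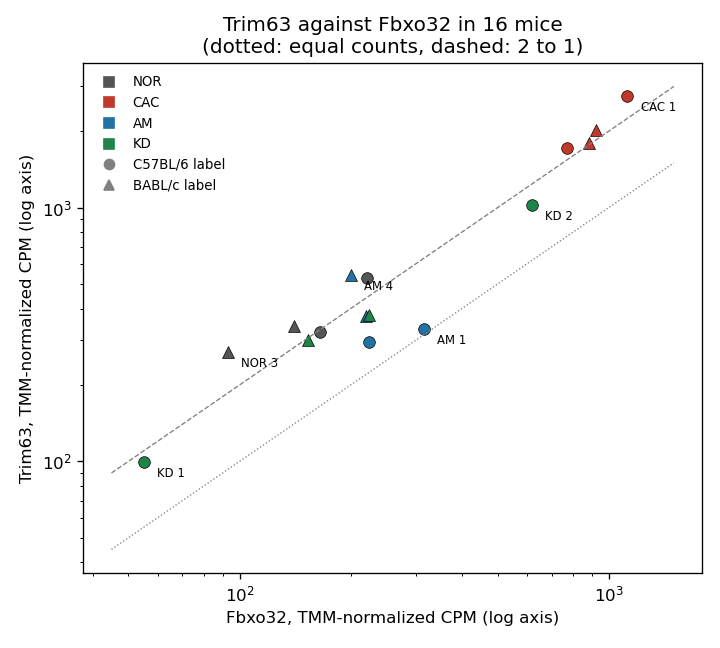
Trim63 is plotted against Fbxo32 in each of the 16 mice (TMM-normalized CPM, both axes logarithmic), with color for group, shape for strain label, and lines where Trim63 has as many counts as Fbxo32 (dotted) or 2 for each (dashed). The 4 CAC mice lie at the upper right, KD 2 below them, KD 1 at the lower left, and AM 1 nearest the dotted line.

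Fbxo32 and Trim63 were each other's nearest gene. Over the 16 libraries, the root mean square difference of their centered log2 CPM was 0.369, the smallest for either gene among 13187 genes. This is a description over mice that share the group differences. After Trim63, the genes nearest to Fbxo32 were Eda2r (0.406), a receptor of the tumor necrosis factor receptor family, Retreg1 (0.432), a receptor for autophagy of the endoplasmic reticulum, Catsper4 (0.465), a sperm calcium channel subunit with only 0.665 CPM in NOR and 2.54 CPM in CAC muscle, and Egln3 (0.516), a prolyl hydroxylase. After Fbxo32, those nearest to Trim63 were Cnksr1 (0.489), a signaling scaffold, Eda2r (0.502), Retreg1 (0.511) and Arrdc3 (0.52), an arrestin-like protein. Retreg1 measured 154 ± 25.0 CPM in NOR, 671 ± 182.5 CPM in CAC, 211 ± 45.8 CPM in AM and 222 ± 155 CPM in KD muscle, and Eda2r 18.9 ± 4.61, 72.7 ± 10.9, 21.1 ± 5.43 and 25.8 ± 23.7 CPM.

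Genes that work with the ligases were read from lists of partners, regulators and substrates, beside the shares of all tested genes given above (4.32% called higher and 9.45% in either direction in CAC vs. NOR, 2.03% lower and 3.66% in either direction in AM vs. CAC). In lists this short, a single call says nothing particular to a list. Among 6 genes for ubiquitin and its activating enzymes, only the polyubiquitin gene Ubb was called in CAC vs. NOR (1464 ± 196 against 950.5 ± 152 CPM, log2 fold change 0.62, adjusted p = 0.0394), and it was called lower in AM vs. CAC (-0.74, adjusted p = 0.0224). The median log2 fold change of this list was 0.13 and -0.26, beside 0.01 and 0.01 over all genes. None of the 5 genes of the cullin-RING core was called (medians -0.03 and -0.14). Of 12 conjugating enzymes and cofactors, 1 was called higher in CAC vs. NOR, Ube2j1 (0.62, adjusted p = 0.0324), with a list median of 0.05, and none in AM vs. CAC (median -0.01). Of 20 other muscle ligases, 1 was called, and it was lower: Trim55, the MuRF2 gene closely related to Trim63, fell from 77.5 ± 13.3 CPM in NOR to 41.5 ± 12.4 CPM in CAC muscle (log2 fold change -0.90, adjusted p = 0.0292), with a list median of 0.08. None of these 20 was called in AM vs. CAC (median 0.01).

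Upstream regulators of the atrophy ligases were called higher in CAC vs. NOR for 7 of 22 genes and lower for none, beside 4.32% of all tested genes called higher, with a median of 0.24. The lowest p belonged to Foxo1, a transcription factor of the FoxO family, which measured 51.6 ± 10.6 CPM in NOR and 136 ± 10.7 CPM in CAC muscle (log2 fold change 1.40, SE 0.146, adjusted p = 0.00214). The other 6, named after their values were seen, were Foxo3, Klf15, Cebpd, Stat3, Akt1 and Myog. The list was not sorted by whether a gene raises or lowers the ligases. For Akt1, the study ties inhibition of the Akt pathway to muscle wasting. Calls in the same direction are thus no measure of ligase activation. Cebpd changed most (2.76, adjusted p = 0.00522). With amiloride, 5 of the 22 genes were called lower than in CAC and none higher, beside 2.03% of all tested genes called lower (median -0.15), namely Foxo1 (-1.32, adjusted p = 0.00223), Foxo3, Klf15, Cebpd and Akt1. Of 12 genes for known substrates of these ligases, 1 was called higher and 2 lower in CAC vs. NOR, beside 9.45% of all tested genes called in either direction (median -0.25). The translation initiation subunit gene Eif3f had the lowest p of those higher (244 ± 7.33 to 371 ± 7.57 CPM, log2 fold change 0.60, adjusted p = 0.00462), and Irs1, which encodes insulin receptor substrate 1, of those lower (102 ± 33.6 to 41.4 ± 4.87 CPM, -1.30, adjusted p = 0.0091). Myl1 was the other gene called lower. None of the substrates was called in AM vs. CAC (median 0.16), and in KD vs. CAC none of the genes of these 6 lists was called.

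**Figure D5:**
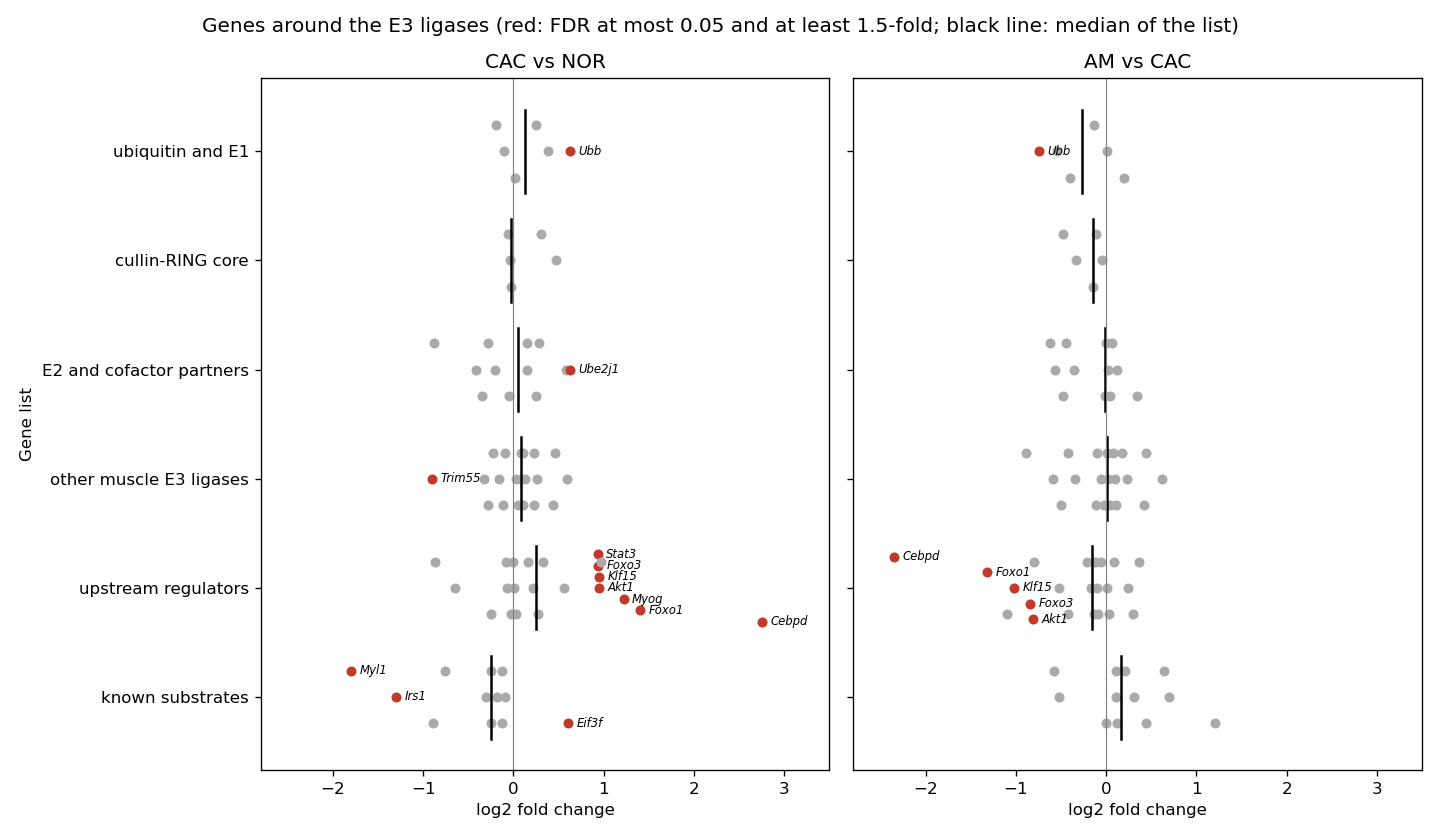
Each point is a gene of the 6 lists, placed on the horizontal axis by the log2 fold change of CAC against NOR (left) or of AM against CAC (right), with red and named points for calls and a black line for the list median. The upstream regulators hold 7 called genes on the left, all higher, and 5 on the right, all lower.

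The 10 genes lie on different chromosomes except Fbxo40 (chr16:36963460-36990467, minus strand) and Cblb (chr16:52031225-52208048, plus strand), by GENCODE M21 on GRCm38. Fbxo32 lies at chr15:58175879-58214932 on the minus strand, Trim63 at chr4:134315120-134329629 on the plus strand and Fbxo31 at chr8:121549440-121578806 on the minus strand. Fbxo30 lies at chr10:11281330-11298052, Fbxo21 at chr5:117976730-118010201, Traf6 at chr2:101678429-101701669, Nedd4l at chr18:64887705-65217828 (all plus strand) and Ubr2 at chr17:46928295-47010556 (minus strand). Exons of Fbxo32 overlap the antisense gene Gm15943 by 186 bases and those of Nedd4l overlap the antisense gene A330084C13Rik by 277 bases. Whether the counting used strand is not given in the sources used here, so reads in these stretches may belong to either gene.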

How the data were processed

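Gastrocnemius RNA of 16 mice (4 each of NOR, CAC, AM and KD) was sequenced for the study by a commercial provider, after oligo(dT) selection, on a HiSeq2500. The authors deposited a single table of the whole series, with a column of gene counts and a column of FPKM values for each library. The submitters' processing notes name fastp, Bowtie2, HISAT2, StringTie 1.3.1 and the builds mm9 and GRCm38, with no role or order. The counting tool and its use of strand are not given in the sources used here. Of 21923 gene identifiers, 21905 matched GENCODE M21 (GRCm38), from which positions were taken, and 3719 genes had 0 counts in every library. Amiloride libraries are those the labels call T in their titles and amiloride in their treatment.

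The counts were tested with edgeR 4.0.16 in R 4.3.3 (TMM, filterByExpr with a minimum count of 10 and total of 15, quasi-likelihood F test) on the 8 libraries compared, with Benjamini-Hochberg adjustment over all genes tested. A call needed an adjusted p of at most 0.05 and a 1.5-fold change. These are the study's limits, but its own tool, NOISeq, was not used here. Fold changes per strain label came from the 4 libraries with that label, and their difference from an interaction term. CPM were computed from counts with TMM factors over 16 libraries. FPKM served to rank levels between genes. The log2 ratio of Trim63 to Fbxo32 counts was tested by a two-sided exact permutation test. Intervals are 95% intervals. The scripts were tested on simulated data. Figures were drawn with matplotlib 3.10.9 in Python 3.11.15.

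The 10 genes and all lists were chosen with earlier results of these data known. Named were the 10 genes, the called gene of each list with the lowest p per direction in CAC vs. NOR, and the genes nearest to Fbxo32 and Trim63. Other named genes (Foxo3, Klf15, Cebpd, Stat3, Akt1, Myog, Myl1, Itgam, Des and the neighbors of Trim63) fall outside this rule and were chosen after their values were seen. Alternatives were other scalings (RLE, upper quartile, total count), DESeq2 1.42.0, limma-voom 3.58.1, other filters and limits, a replicate block, a strain covariate, all 16 libraries together, each strain label alone, and leaving out each library. A lymphocyte score covariate and leaving out the libraries low in lymphocyte markers were added after the data were seen. H2-Ea and Xist were not analysed here, so the strain label was not checked.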

Additional observations from a re-analysis of the deposited data

Results flagged for a closer look

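Traf6 in NOR replicate 2 measured 24.5 CPM, whereas the other 3 NOR mice lay between 26.5 and 26.6 CPM. The gap was 0.928 of the group's range, above Dixon's critical value for 4 samples. It was the only one of 40 sets of 4 values (10 genes in 4 groups) that stood out in this way, and chance alone marks about 1 in 20. The narrow spread of the other 3 values makes the gap large relative to the range, although it amounts to about 2 CPM.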

How the results depend on the processing

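Called directions of Fbxo32, Trim63 and Fbxo31 held under every setting tried in CAC vs. NOR and AM vs. CAC. Of 22 settings, the CAC vs. NOR call was kept in 21, 20 and 20, and the AM vs. CAC call in 17, 18 and 17. The number of the 10 genes called in CAC vs. NOR was 1 in C57BL/6-labelled and 0 in BABL/c-labelled mice alone. In AM vs. CAC it was 1 with all 16 libraries and 0 within either label and without the low-lymphocyte libraries, where fewer mice remained. DESeq2 called 2 in KD vs. CAC and 1 for the strain difference in AM vs. CAC, and the cause was not tested.

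Genes called in CAC vs. NOR (1386) fell to 247 and 0 within the C57BL/6 and BABL/c labels and 398 without the low-lymphocyte libraries, and to 808, 728 and 922 without NOR replicate 2, NOR replicate 3 and CAC replicate 1. Those in AM vs. CAC (537) were 1119 with DESeq2, 339 with a strain covariate, 231 with all 16 libraries, 0 with the block or within a label, 18 without the low-lymphocyte libraries and 212 to 447 with 1 library left out. In KD vs. CAC (1) they were 340 with DESeq2 and 145 with all 16 libraries. Total-count scaling gave 60.8% of calls higher in CAC vs. NOR, against 45.7%, and shifted the median of all genes to 0.14 there and -0.11 in KD vs. CAC. In AM vs. CAC 44.5% of calls were higher, against 54.6% with upper-quartile scaling, 57.2% with DESeq2, 56.7% with all 16 libraries and 33.9% with a strain covariate.

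Replicate numbers did not pair the mice: deviations of same-numbered mice correlated from -0.636 to 0.601, and 4 of 24 correlated best with their own number. With the number as a replicate block, 0 of the 10 genes were called in AM vs. CAC (Fbxo32 -1.95, Trim63 -2.44, Fbxo31 -1.05, adjusted p 0.0734, 0.0793 and 0.123 by edgeR), and all 3 remained in CAC vs. NOR. Traf6 in KD vs. CAC was -0.0016 and Trim63 in KD vs. NOR -0.0549 with the block.

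Signs of uncalled log2 fold changes changed as follows. With total counts, Traf6 (0.0941) and Nedd4l (0.0584) in CAC vs. NOR, Fbxo30 (-0.0605) and Nedd4l (-0.0517) in AM vs. CAC, and Traf6 (-0.0981) in KD vs. CAC did so. In C57BL/6-labelled mice these were Fbxo30 (-0.0801) and Nedd4l (0.0885) in CAC vs. NOR, Fbxo40 (-0.351) and Nedd4l (-0.0189) in AM vs. CAC, Fbxo30 (0.0969), Fbxo40 (-0.271), Traf6 (-0.164) and Nedd4l (-0.0129) in KD vs. CAC, Trim63 (-0.402) and Fbxo31 (-0.0234) in AM vs. NOR, and Fbxo31 (-0.0501) in KD vs. NOR. In BABL/c-labelled mice they were Fbxo30 (-0.142) in AM vs. CAC and Ubr2 (0.13) in KD vs. CAC, and with limma-voom Fbxo30 (-0.0069) in AM vs. CAC and Trim63 (-0.0899) in KD vs. NOR. Without the low-lymphocyte libraries they were Fbxo30 (-0.0997) and Traf6 (0.059) in CAC vs. NOR, Fbxo30 (0.0362), Fbxo40 (-0.186) and Traf6 (-0.0187) in KD vs. CAC, and Fbxo32 (-0.34), Trim63 (-0.631) and Fbxo31 (-0.29) in KD vs. NOR. With the lymphocyte score those in KD vs. NOR were -0.0418, -0.413 and -0.143.

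With 1 library left out, values spanned 0 for Fbxo21 (-0.377 to 0.143), Fbxo30 (-0.0333 to 0.208), Traf6 (-0.0665 to 0.0014) and Nedd4l (-0.157 to 0.0361) in CAC vs. NOR. They did for Fbxo30 (-0.0768 to 0.167), Fbxo40 (-0.0452 to 0.174) and Nedd4l (-0.0745 to 0.103) in AM vs. CAC, and for Fbxo30 (-0.17 to 0.0674) and Traf6 (-0.0661 to 0.135) in KD vs. CAC. Against NOR they did for Trim63 (-0.114 to 0.304) and Fbxo31 (-0.0013 to 0.113) with AM, and for Fbxo32 (-0.0971 to 1.11), Trim63 (-0.491 to 0.64) and Fbxo31 (-0.016 to 0.511) with KD. The log2 ratio difference ran from -0.207 to -0.0185 in CAC vs. NOR, from -0.738 (without AM replicate 4, exact permutation p = 0.0286) to -0.286 in AM vs. CAC, and from -0.375 to -0.279 in KD vs. CAC (exact permutation p from 0.0286 to 0.0571). With 4 mice per group, and 408 to 1243 counts for Fbxo30, small changes of the uncalled genes may have been missed.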

Other observations

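Cnksr1 and Catsper4, among the genes nearest to Trim63 or Fbxo32 in pattern, lie close to Trim63 on chromosome 4, and the stretch was therefore looked at after these values were seen. Within 100000 bases of Trim63, 10 other genes were listed and 9 passed the filter in CAC vs. NOR. On the side before the Trim63 start, Cnksr1 (log2 fold change 1.52, adjusted p = 0.00181 by edgeR), Catsper4 (1.94, 0.0227), Grrp1 (1.85, 0.0013), Zfp593 (0.73, 0.0137) and E130218I03Rik (2.19, 0.0156) were higher in CAC muscle. Over all tested genes, 4.32% were called higher in this comparison. Cnksr1 and Catsper4 had led to this stretch, so their calls are no separate result. Zfp593 and E130218I03Rik overlap on opposite strands, so their reads may not be told apart. Catsper4 (chr4:134211970-134227383) begins shortly after the end of Cnksr1 (chr4:134228041-134238399), both on the minus strand. Whether reads past the end of Cnksr1 were counted for Catsper4 was not tested. Pdik1l, which lies nearest on that side at 27224 bases, stood at 0.22 (adjusted p = 0.525), and on the other side Slc30a2, Extl1 and Pafah2 stood at -0.52, -0.05 and -0.41 and were not called. In AM vs. CAC, Cnksr1 (-1.75, adjusted p = 0.00223), Catsper4 (-1.87, 0.021) and Zfp593 (-0.80, 0.0308) were called lower, while Grrp1 (-0.61) and E130218I03Rik (-1.40) were not called. The share of all tested genes called lower there was 2.03%. This is a description of positions and values, and no relation between them was tested.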
